A study of Mus musculus with 6 samples.

Results

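A set of 10 genes that mark tissue macrophages was measured in the craniofacial tissue of mouse embryos. They are *Csf1r*, *Cx3cr1*, *Mrc1*, *C1qa*, *C1qb*, *C1qc*, *Tyrobp*, *Fcer1g*, *Aif1* and *Cd68*. The genes were taken by name from a table of 38553 genes, all 10 names were found, and all 10 passed the filter on low values that left 13715 genes for testing. RNA-Seq was performed on poly(A) RNA from tissue microdissected at E12.5, from 3 control embryos and 3 Rbfox2 mutant embryos, which are separate biological replicates. Controls were labelled with the genotype Rbfox2 flox/flox, and mutants with the genotype Pax3Cre/+:Rbfox2 flox/flox. By these labels both groups carried the floxed alleles and only the mutants carried Cre. For controls, the paper's methods name several genotypes over the whole study, some of them with Cre. *Pax3*-Cre is a knock-in at the *Pax3* gene that is active in neural crest and somite precursors. By the labels it therefore takes 1 copy of *Pax3* in the mutants only, and Cre and the loss of *Rbfox2* cannot be told apart by these 2 groups.

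Macrophages of the embryo derive from yolk sac and fetal blood-forming precursors, not from neural crest. They enter the head early, depend on signalling through the receptor CSF1R, and clear dying cells through phagocytic receptors, complement and lysosomes. In bulk tissue they are a small part of the cells, and a lower level of their genes from fewer cells cannot be told apart from less RNA in each cell.

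The promoters of the *Cd68* and *C1qb* genes are shown because *Cd68* was the member that differed most between the groups and *C1qb* was the most abundant complement member. The capitals mark GAGGAA, a purine-rich core of the kind bound by PU.1, the transcription factor that directs the macrophage lineage. Each sequence is the 250 bases before the gene's start on its own strand, from RefSeq on GRCm38.p6. The *Cd68* window is chr11:69666171-69666420, on the minus strand, with the match 225 bases before the start. The *C1qb* window is chr4:136886201-136886450, also on the minus strand, with the match 30 bases before the start.
*Cd68*: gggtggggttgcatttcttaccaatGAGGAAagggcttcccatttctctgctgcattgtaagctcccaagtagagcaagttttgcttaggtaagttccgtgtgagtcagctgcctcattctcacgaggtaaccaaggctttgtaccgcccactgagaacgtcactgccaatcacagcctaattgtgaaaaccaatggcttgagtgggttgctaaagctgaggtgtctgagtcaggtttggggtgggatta
*C1qb*: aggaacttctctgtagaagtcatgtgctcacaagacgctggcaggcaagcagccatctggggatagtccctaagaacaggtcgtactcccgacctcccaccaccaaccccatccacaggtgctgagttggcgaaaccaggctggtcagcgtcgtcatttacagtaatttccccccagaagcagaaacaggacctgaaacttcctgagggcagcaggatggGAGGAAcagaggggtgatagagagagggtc
Matches were counted on both strands, as GAGGAA or its reverse complement TTCCTC, and no other motif was searched. An entry was at hand for 7 of the 10 members, and 5 of these 7 windows held at least 1 match. Over the 32851 promoter windows of the same length in the table, 23.25% held one. A match describes the letters in the window and is not evidence of binding.

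The deposited values are FPKM, fragments scaled by gene length and by all mapped fragments, so levels can be compared only approximately between genes and between samples. The summed FPKM of all genes ran from 528123 in mutant replicate 1 to 590174 in mutant replicate 3. The read count behind a value is unknown. As a check of the labels, *Rbfox2* was at 58.4, 65.0 and 61.3 FPKM in control replicates 1, 2 and 3 and at 38.1, 36.3 and 34.3 FPKM in mutant replicates 1, 2 and 3. The mutant mean was 58.8% of the control mean. The fall was 0.75 on the log2 scale, and it did not pass the threshold after Benjamini-Hochberg adjustment in limma (adjusted p = 0.189). A list of 11 cranial mesenchyme genes summed to between 827 and 1054 FPKM in controls and between 831 and 871 FPKM in mutants, and all 11 passed the filter. Control replicate 1 and mutant replicate 1 stood apart from the other 4 samples. The first principal component of the genes tested held 47.1% of the variance and placed them at -24.0 and -22.8, against 9.85 to 14.9 for the others. Values within replicate pairs are therefore given below beside the values over all samples. Control and mutant samples with the same number also deviated together, so the comparison was also run with replicate number as a blocking term.

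Together the macrophage genes were at nearly the same level in the 2 groups. Their summed FPKM was 59.4, 69.1 and 64.4 in control replicates 1, 2 and 3 and 58.2, 72.4 and 63.7 in mutant replicates 1, 2 and 3. The groups overlapped, and the first replicate was the lowest in each. The mean was 64.3 ± 4.82 in the control samples and 64.7 ± 7.16 in the mutant samples (SD, n = 3 each), a log2 difference of 0.0064 with a standard error of 0.11. The macrophage genes made up between 0.0107% and 0.0126% of the summed FPKM of all genes in a sample.

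In limma on log2(FPKM + 1), a scale that understates the change of genes with low values, 0 of the 10 members had an adjusted p under 0.05, as was the case for 0 of the 13715 genes tested (0%). The smallest adjusted p of any gene was 0.189. At an unadjusted p under 0.05 there was 1 member, *Cd68*, against 286 genes, or 2.09% of all genes tested. With the replicate block it was again 1 member, *Cd68*, against 844 genes, or 6.15%. *Cd68* was also the 1 member whose mutant and control values did not overlap, which held for 5.79% of all genes tested. These counts of 1 in 10 members were not tested against the shares over all genes. The median log2 difference of the members was 0.04, against 0.0015 for all genes tested, and their median size was 0.069, against 0.062. By point estimate 6 members were higher and 4 were lower in mutants.

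**Figure D1:**
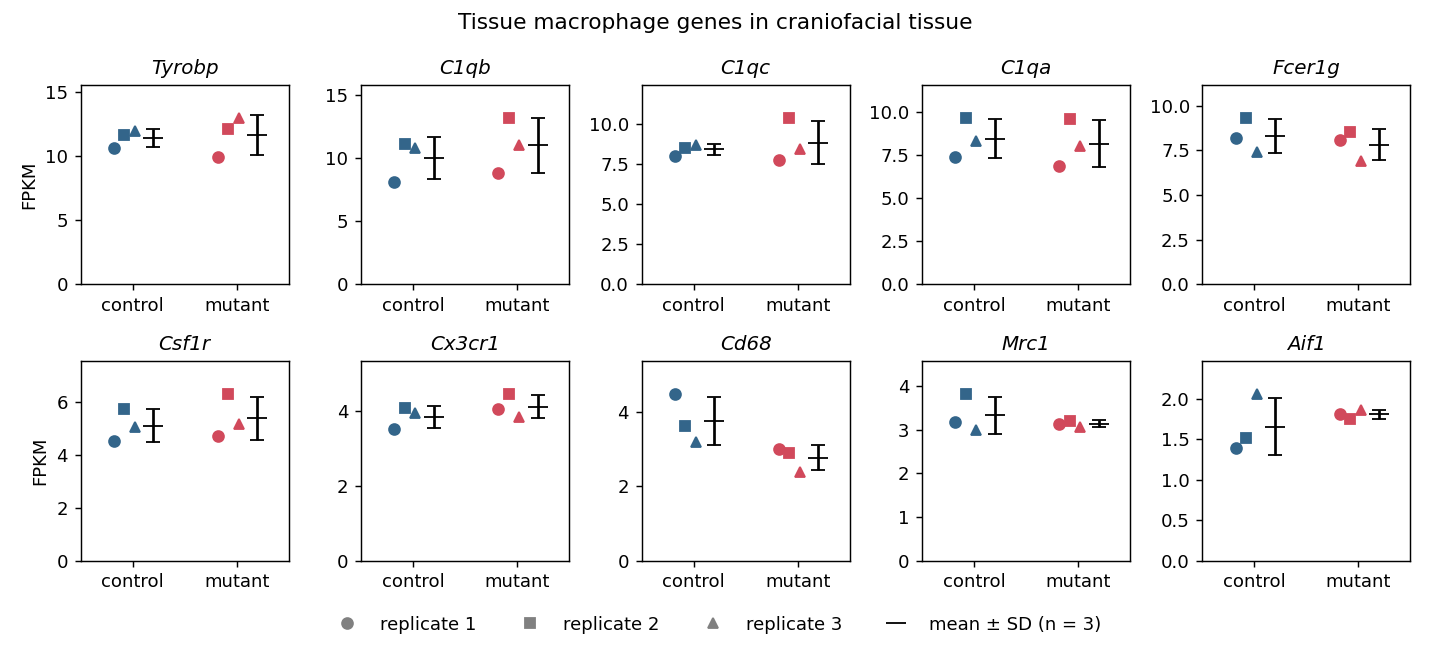
FPKM of the 10 macrophage genes in each sample, 1 panel per gene with its own axis from 0, control samples in blue and mutant samples in red. Marker shapes give the replicate number and black bars the mean ± SD (n = 3). In *Cd68* the 3 mutant values, 2.37 to 3.01 FPKM, all sit under the 3 control values, 3.19 to 4.46 FPKM, and in the other 9 genes the groups overlap.

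*Cd68*, which encodes a heavily glycosylated protein of the lysosome and endosome membrane of macrophages, was the member with the largest difference. It was at 4.46, 3.60 and 3.19 FPKM in control replicates 1, 2 and 3 and at 3.01, 2.90 and 2.37 FPKM in mutant replicates 1, 2 and 3. Every mutant value was below every control value, and the closest were mutant replicate 1 and control replicate 3. The mean was 3.75 ± 0.645 FPKM in the control samples and 2.76 ± 0.339 FPKM in the mutant samples (SD, n = 3 each), or 73.6% of the control mean. The log2 difference was -0.33 (standard error 0.131, 95% interval -0.64 to -0.02), with an unadjusted p of 0.0383 and an adjusted p of 0.99999 in limma. The exact two-sided permutation p was 0.1, the smallest that 3 samples against 3 can give. With the replicate block the unadjusted p was 0.0130 and the adjusted p was 0.797.

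The difference of *Cd68* had the same direction in each replicate pair. Any pairing would give this, since the groups did not overlap. On the log2 scale it was -0.45 for the replicates numbered 1, -0.24 for those numbered 2 and -0.31 for those numbered 3. With each sample left out in turn, the unadjusted p stayed under 0.05 in 2 of 6 fits. It rose above 0.05 without control replicate 1 (log2 difference -0.23), control replicate 2 (-0.35), mutant replicate 2 (-0.36) or mutant replicate 3 (-0.26). It also rose above 0.05 on replicates 2 and 3 only (-0.28) and without a filter on low values (-0.33). Over all 11 alternatives the unadjusted p of limma ranged from 0.0130 to 0.122. Control replicate 1, the highest of the 6 values, was the sample whose absence moved the estimate most.

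*Cd68* (ENSMUSG00000018774) is on chromosome 11 of GRCm38, minus strand, between 69664213 and 69666153, and no exon of another annotated gene overlaps its exons. Relative to *Csf1r*, another macrophage gene, the FPKM ratio of *Cd68* was 0.986, 0.628 and 0.633 in control replicates 1, 2 and 3 and 0.641, 0.462 and 0.460 in mutant replicates 1, 2 and 3. The ratio was lower in the mutant of every pair, which follows from *Cd68* being lower and *Csf1r* higher in each. The groups overlapped, since mutant replicate 1 lay just above control replicates 2 and 3 (exact two-sided permutation test, p = 0.3).

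**Figure D2:**
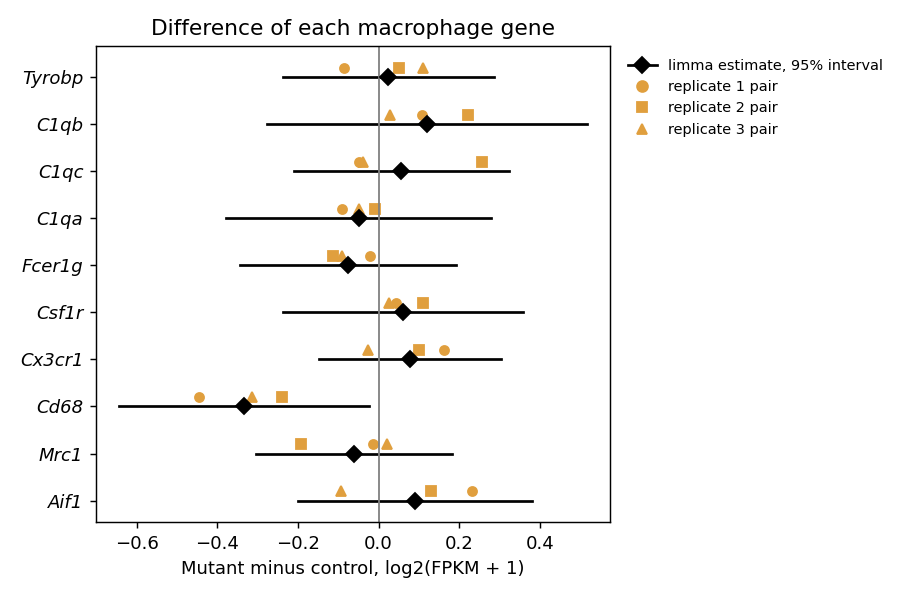
Difference between mutants and controls on the log2(FPKM + 1) scale for each macrophage gene, with the limma estimate and its 95% interval in black and the difference within each replicate pair in orange. The interval of *Cd68* runs from -0.64 to -0.02, and the intervals of the other 9 genes include 0.

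The surface receptors were at low to middle levels. *Csf1r* encodes the receptor for the growth factors CSF1 and IL-34, on which most macrophages depend for survival. Its FPKM was 4.52, 5.74 and 5.05 in control replicates 1, 2 and 3 and 4.69, 6.28 and 5.16 in mutant replicates 1, 2 and 3. The groups overlapped, with the first replicate lowest in each. Mutants differed from controls by 0.06 on the log2 scale (standard error 0.126, 95% interval -0.24 to 0.36), and the difference was above 0 in all 3 pairs. *Csf1r* (ENSMUSG00000024621) is on chromosome 18 of GRCm38, plus strand, between 61100598 and 61132149. Of its 5774 exon bases, 873 are shared with *Hmgxb3* on the other strand. The libraries were made with a strand-specific kit, but whether strand was used in making the FPKM is not given in the sources used here, so its level is uncertain by reads from that gene.

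*Cx3cr1* encodes the fractalkine receptor, abundant on microglia and other resident macrophages. It was at 3.52, 4.08 and 3.94 FPKM in control replicates 1, 2 and 3 and at 4.06, 4.45 and 3.85 FPKM in mutant replicates 1, 2 and 3. The groups overlapped, and the log2 difference was 0.08 (standard error 0.0955, 95% interval -0.15 to 0.30). Only 78 of its 4505 exon bases are shared with another gene, on the other strand.

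*Mrc1* encodes the mannose receptor, a phagocytic receptor of resident macrophages that some endothelial cells also carry. Its FPKM was 3.17, 3.80 and 2.99 in control replicates 1, 2 and 3 and 3.13, 3.21 and 3.05 in mutant replicates 1, 2 and 3. All 3 mutant values fell within the range of the controls. Its log2 difference was -0.06 (standard error 0.103, 95% interval -0.30 to 0.18).

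The complement genes *C1qa*, *C1qb* and *C1qc* encode the 3 chains of C1q, the molecule that starts the classical complement pathway and tags cells and debris for uptake. They lie next to each other on chromosome 4 of GRCm38, minus strand, between 136880129 and 136898803, and no other annotated gene lies in this span of 18675 bases. *C1qa* was at 7.38, 9.67 and 8.35 FPKM in control replicates 1, 2 and 3 and at 6.88, 9.60 and 8.03 FPKM in mutant replicates 1, 2 and 3. *C1qb* was at 8.11, 11.2 and 10.8 FPKM in the same controls and at 8.82, 13.2 and 11.1 FPKM in the same mutants. *C1qc* was at 8.01, 8.49 and 8.66 FPKM in the controls and at 7.71, 10.3 and 8.41 FPKM in the mutants. For each of the 3 genes the groups overlapped and the first replicate was the lowest of its group.

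The log2 difference was -0.05 for *C1qa* (standard error 0.139), 0.12 for *C1qb* (standard error 0.168) and 0.06 for *C1qc* (standard error 0.113). Their 95% intervals were -0.38 to 0.28, -0.28 to 0.52 and -0.21 to 0.32. The interval of *C1qb* was the widest of the 10 members. Their summed FPKM was 26.9 ± 3.02 in the control samples and 28.0 ± 4.88 in the mutant samples (SD, n = 3 each). The ratio of *C1qb* to *C1qa* was 1.10, 1.16 and 1.30 in control replicates 1, 2 and 3 and 1.28, 1.37 and 1.38 in mutant replicates 1, 2 and 3. This ratio was higher in the mutant of every pair, which follows from *C1qb* being higher and *C1qa* lower in each. The groups overlapped at control replicate 3 and mutant replicate 1 (exact two-sided permutation test, p = 0.2). The ratio of *C1qc* to *C1qa* was 1.0 ± 0.11 in the control samples and 1.08 ± 0.0372 in the mutant samples (SD, n = 3 each).

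*Tyrobp* and *Fcer1g* encode DAP12 and the Fc receptor gamma chain, small membrane adaptors with an immunoreceptor tyrosine-based activation motif (ITAM) through which many myeloid receptors signal. *Tyrobp* was the most abundant member, at 10.6, 11.7 and 11.96 FPKM in control replicates 1, 2 and 3 and at 9.96, 12.1 and 12.99 FPKM in mutant replicates 1, 2 and 3. The mutants held both the lowest and the highest value. Its log2 difference was 0.02 (standard error 0.111, 95% interval -0.24 to 0.29). *Fcer1g*, which mast cells and other blood cells also use, was at 8.22, 9.31 and 7.41 FPKM in control replicates 1, 2 and 3 and at 8.08, 8.52 and 6.89 FPKM in mutant replicates 1, 2 and 3. Its values were lower in the mutant of all 3 pairs, but the groups overlapped. Its log2 difference was -0.08 (standard error 0.114, 95% interval -0.34 to 0.19).

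*Aif1* encodes IBA1, a calcium-binding protein of the macrophage cytoskeleton that is widely used to stain these cells. It was the least abundant member, at 1.39, 1.52 and 2.06 FPKM in control replicates 1, 2 and 3 and at 1.81, 1.75 and 1.87 FPKM in mutant replicates 1, 2 and 3. The mutants lay close together and within the range of the controls. On the log2 scale the difference was 0.09 (standard error 0.123, 95% interval -0.20 to 0.38). Over the 9 members other than *Cd68*, the lowest unadjusted p in limma was 0.438, and no 95% interval reached below -0.38 or above 0.52.

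Over all 6 samples, mean levels fell in order from *Tyrobp* (11.6 FPKM) through *C1qb* (10.5 FPKM), *C1qc* (8.60 FPKM), *C1qa* (8.32 FPKM) and *Fcer1g* (8.07 FPKM) to *Csf1r* (5.24 FPKM). Below these came *Cx3cr1* (3.98 FPKM), *Cd68* (3.26 FPKM), *Mrc1* (3.23 FPKM) and *Aif1* (1.73 FPKM). The ranges of neighbours in this order did not overlap between *Fcer1g* and *Csf1r*, between *Csf1r* and *Cx3cr1* and between *Mrc1* and *Aif1*. The other 6 neighbouring pairs overlapped, although *C1qb* was above *C1qc* in 6 of 6 samples. The 5 most abundant members were the ones above 5 FPKM in each sample of at least 1 group, the filter that the study's methods give for transcripts, applied here to genes. *Cd68* was not among them.

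Many of these values followed the replicate number on the FPKM scale, on which the first replicates also had the lowest totals over all genes. The lowest of the 6 values was in a first replicate for 7 of the 10 members. In *Tyrobp*, *C1qa*, *C1qb*, *C1qc* and *Csf1r* the first replicate was below the other 2 in both groups. *Cd68* went the other way, since its first replicate was the highest in both groups. Mutant replicate 2 held the highest value of 4 members, *C1qb*, *C1qc*, *Csf1r* and *Cx3cr1*. Within pairs of the same number, the difference between mutant and control had 1 sign in all 3 pairs for 5 members, higher for *C1qb* and *Csf1r* and lower for *C1qa*, *Fcer1g* and *Cd68*, against 27% of all genes tested.

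**Figure D3:**
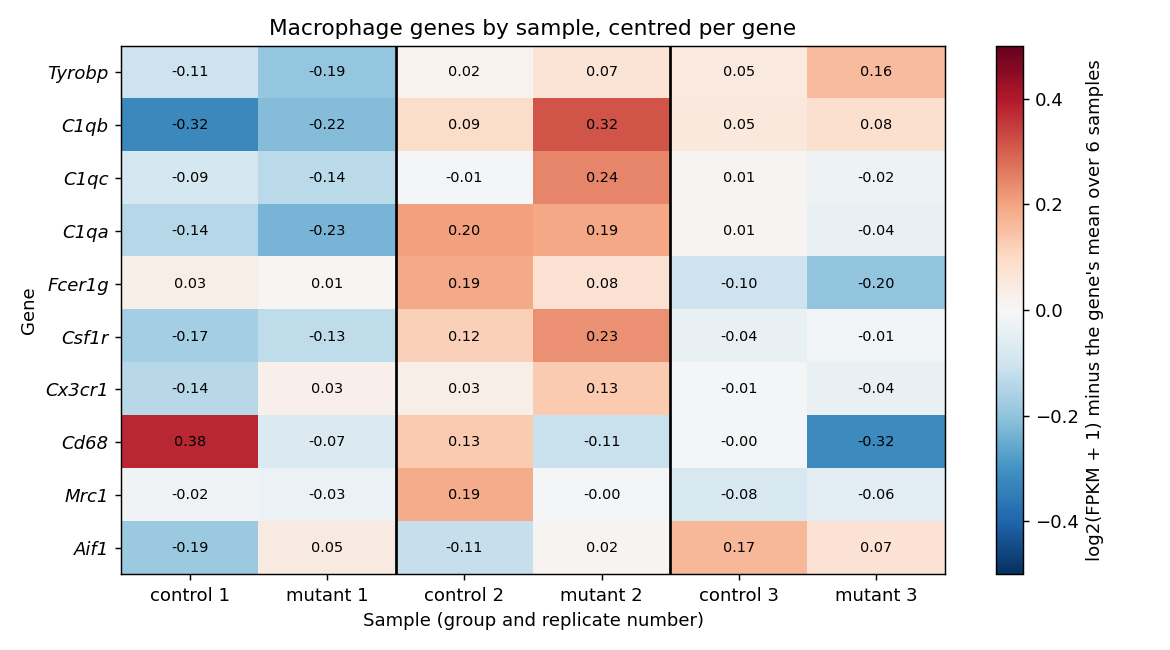
Log2(FPKM + 1) of each macrophage gene minus the gene's mean over the 6 samples, with columns ordered by replicate number and black lines between the numbers. *C1qb* stands at -0.32 in control replicate 1 and 0.32 in mutant replicate 2, and *Cd68* at 0.38 in control replicate 1 and -0.32 in mutant replicate 3.

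The other genes of macrophage biology, taken as 8 lists of 96 genes, held few genes with a difference between the groups as well. All 96 were found, 56 passed the filter and 1 of these had an unadjusted p under 0.05 in limma, with and without the replicate block, against the shares of 2.09% and 6.15% given above. After adjustment, 0 of the 56 passed the threshold of 0.05. This 1 gene was *Serping1*, the inhibitor of the C1 proteases. *Serping1* was at 11.4, 9.40 and 9.80 FPKM in control replicates 1, 2 and 3 and at 11.5, 12.98 and 12.4 FPKM in mutant replicates 1, 2 and 3. Every mutant value was above every control value, by a narrow margin for the first replicates. The log2 difference was 0.25 (standard error 0.0967), with an unadjusted p of 0.0356 and an adjusted p of 0.99999 in limma. It lay between 0.20 and 0.37 over 12 alternatives, and its unadjusted p was under 0.05 in 8 of them. Many connective tissue cells also make this inhibitor.

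The ligands of the receptors were tested for 2 of 3 genes, and 0 had an unadjusted p under 0.05 in limma. *Csf1*, the main ligand of CSF1R, was at 3.85 ± 0.235 FPKM in the control samples and 4.29 ± 0.709 FPKM in the mutant samples (SD, n = 3 each). *Cx3cl1*, which encodes fractalkine, was at 3.44 ± 0.554 FPKM in the control samples and 3.66 ± 0.758 FPKM in the mutant samples (SD, n = 3 each). *Il34*, the second ligand of CSF1R, had a mean under 1 FPKM and was not tested. It was at 0.251, 0.194 and 0.230 FPKM in control replicates 1, 2 and 3 and at 1.02, 0.493 and 0.323 FPKM in mutant replicates 1, 2 and 3. Its mutant values were all above its control values, at a level that few reads may support.

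Transcription factors of the macrophage lineage were tested for 7 of 10 genes. All 7 log2 differences were below 0, from -0.33 to -0.04, and 0 had an unadjusted p under 0.05 in limma. *Maf* and *Runx1* were among the most abundant. *Runx1*, a factor of blood formation, was at 2.97, 3.48 and 2.83 FPKM in control replicates 1, 2 and 3 and at 2.95, 2.26 and 1.93 FPKM in mutant replicates 1, 2 and 3, and the groups overlapped through mutant replicate 1. Its log2 difference was -0.28 (unadjusted p = 0.0771 in limma). *Maf* had a log2 difference of -0.09. Both factors are also made by cells other than macrophages.

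Other surface and secreted genes of tissue macrophages were tested for 6 of 13 genes, and 5 of the 13 stayed under 1 FPKM in every sample. None of the 6 had an unadjusted p under 0.05, and their median log2 difference was -0.0059. The most abundant were *Pf4*, a chemokine of macrophages and platelets (log2 difference 0.22), *Stab1*, a scavenger receptor (-0.08), and *Mertk*, a receptor for dying cells (-0.02). The microglia list was tested for 5 of 10 genes, with a median log2 difference of -0.03 and 0 with an unadjusted p under 0.05. Its most abundant genes included *Olfml3* and *Tmem119*, the latter at 35.9 ± 3.39 FPKM in the control samples and 32.2 ± 1.53 FPKM in the mutant samples (SD, n = 3 each). *Tmem119* was above every member of the macrophage set in each sample, and it is also made by cells of the bone lineage, so its level does not stand for microglia here.

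Partners and kinases of the ITAM adaptors were tested for 5 of 12 genes, with a median log2 difference of 0.09, and 0 had an unadjusted p under 0.05. The Fc receptor gene *Fcgr3* had a log2 difference of 0.17, and the kinase genes *Lyn* and *Syk* had 0.09 and 0.0019. Other complement genes were tested for 4 of 16 genes, and 11 of the 16 stayed under 1 FPKM in every sample. Apart from *Serping1*, the most abundant were *Cd93*, an endothelial and myeloid surface protein, with a log2 difference of -0.02, and *Cfp*, which encodes properdin, with -0.20. Lysosome and phagocytosis genes, the group to which *Cd68* belongs by function, were tested for all 20, with log2 differences between -0.09 and 0.12 and a median of -0.0076. *Psap*, *Cd63* and *Lamp1*, which are made by most cells, differed by -0.0079, -0.01 and -0.0057. None of the 20 had an unadjusted p under 0.05, with or without the replicate block.

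Genes shared by all white blood cells were tested for 7 of 12, and 0 had an unadjusted p under 0.05 in limma. Their summed FPKM ranged from 45.3 to 53.2 in controls and from 49.8 to 53.2 in mutants. *Coro1a*, *Lcp1* and *Laptm5*, a regulator of actin, an actin-bundling protein and a lysosomal protein of blood cells, had log2 differences of 0.13, 0.06 and -0.12.

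**Figure D4:**
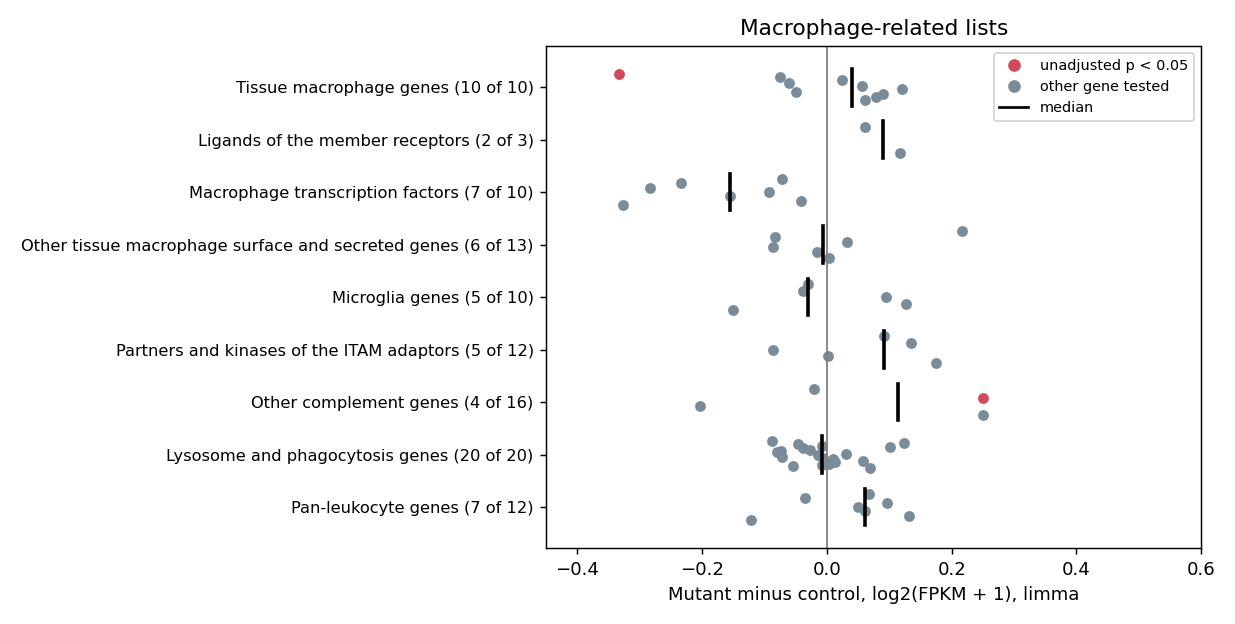
Log2 difference between mutants and controls, from limma on log2(FPKM + 1), of each tested gene in the macrophage set and in 8 related lists, with the number tested of those found in brackets. Black bars give the median of each list, and the 2 genes with an unadjusted p under 0.05, *Cd68* and *Serping1*, are in red.

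Some markers of other cell types in the tissue also had an unadjusted p under 0.05, and their values are given beside the difference of *Cd68*. Over all genes tested the share was 2.09%, or 6.15% with the replicate block. The counts of the lists below were not tested against these shares. Of 10 neuron genes, 3 had an unadjusted p under 0.05 in limma, *Tubb3*, *Elavl3* and *Dcx*, all higher in mutants, with log2 differences of 0.34, 0.23 and 0.26. With the replicate block 6 of the 10 had an unadjusted p under 0.05, these 3 with *Stmn2*, *Elavl4* and *Snap25*, at log2 differences of 0.15, 0.20 and 0.18. The log2 differences of all 10 ran from -0.06 to 0.34. The summed FPKM of the neuron list was 794 to 840 in controls and 905 to 999 in mutants, which do not overlap. *Tubb3*, the most abundant gene of the list, was at 322 to 392 FPKM in controls and 402 to 498 FPKM in mutants. Of 10 endothelial genes, *Egfl7* had an unadjusted p under 0.05 and was lower in mutants by a log2 difference of -0.20. The endothelial list summed to 156 to 181 FPKM in controls and 157 to 172 FPKM in mutants. Of 11 cranial mesenchyme genes, *Col1a1* had an unadjusted p under 0.05, with a log2 difference of -0.42. *Egfl7* and *Col1a1* were also the 1 gene of their lists called with the block. After adjustment 0 genes of these 3 lists passed the threshold, with or without the block, and the part of tissue composition in the difference of *Cd68* was not tested.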

How the data were processed

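The authors made stranded RNA-Seq libraries from polyadenylated RNA of 6 samples, which were sequenced as read pairs, checked with FastQC 0.11.4 (submitters' processing notes) and aligned to GRCm38 with STAR. The authors deposited FPKM values for 38553 genes, and the methods name Cuffdiff. The annotation and the step that made the gene table are not given in the sources used here. Tables of single samples held the same values as the table of all samples (0 differences), and samples were grouped by the genotype in their labels. Depth per gene is unknown. Whole reads could not be recovered from the low values: among genes under 0.05 FPKM in both samples of a pair, at most 31.2% stood at 1 ratio, in log2 bins of 0.01, so no count test was run. This share was 16.9% to 31.2% for pairs among replicates 2 and 3. For pairs with a first replicate it was 1.15% to 7.29%, and the cause of this split was not tested.

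Genes with a mean over 1 FPKM were compared on log2(FPKM + 1) by limma 3.58.1 (R 4.3.3), two-sided, fitting the trend of variance on intensity, and Benjamini-Hochberg adjustment over 13715 genes. The pseudocount was 1. The test was run on simulated data first. Single values were compared by an exact permutation test, two-sided, whose smallest p is 0.1. Across genes, control and mutant samples numbered 1, 2 and 3 correlated at 0.55, 0.27 and 0.36 in their departures from the group means, and numbers were taken to pair the samples because each was over 0.1. Control replicate 3 correlated with mutant replicate 2 at 0.30, so the pairing of replicates 2 and 3 is not particular to the number. Neither labels nor methods tie the numbers to litters or days. Values with the replicate number as a block are given where they change a call or a count.

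The members and lists were chosen with earlier results of these data known. Text names the 10 members, *Rbfox2*, from each related list the 3 genes of highest mean FPKM and any with an unadjusted p under 0.05, and from lists of other cells only the latter. Some genes that this rule takes are not reported here. Of 193 list genes, 7 were matched by gene identifier, since the deposited names were older. Positions come from GENCODE annotation of GRCm38 and promoters from RefSeq, read with Python 3.11.15. Alternatives were a pseudocount of 0.1, median ratio scaling, an FPKM filter of 5 in all samples of a group (stated for transcripts in the methods, applied here to genes), no filter, the replicate block, no trend, replicates 2 and 3 only and each sample left out. The count of genes with an unadjusted p under 0.05, and *Rbfox2* and *Serping1*, were added to the alternatives after seeing the data. Values given for single genes over the alternatives do not include the fit without the trend.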

Additional observations from a re-analysis of the deposited data

How the results depend on the processing

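The filters and the replicate block cannot move a log2 difference here, which fixes 25 of 115 values of the members. Of the other 90, 77 kept their direction and 13 reversed. None of the 115 reached an adjusted p under 0.05 (lowest 0.511). All 13 reversals came from leaving out 1 sample. With 1 sample left out, *Csf1r* ranged from -0.039 to 0.138 and turned without control replicate 1 or mutant replicate 2. *C1qa* ranged from -0.159 to 0.055 and turned without control replicate 2 or mutant replicate 1. *C1qb* ranged from -0.012 to 0.258 and turned without control replicate 1 or mutant replicate 2. *C1qc* ranged from -0.052 to 0.138 and turned without mutant replicate 2. *Mrc1* ranged from -0.116 to 0.017 and turned without control replicate 2. *Tyrobp* ranged from -0.049 to 0.126 and turned without control replicate 1 or mutant replicate 2 or mutant replicate 3. *Fcer1g* ranged from -0.147 to 0.0033 and turned without control replicate 2 or mutant replicate 3. *Cd68* stayed between -0.42 and -0.23 over 11 alternatives, with adjusted p between 0.511 and 0.999996 in limma. The other 9 members lay between -0.16 and 0.26 in 104 fits, and 0 had an unadjusted p under 0.05.

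Members with an unadjusted p under 0.05 were 1 in the fit as reported, 0 with the FPKM filter of 5 (which leaves out *Cd68*), 0 without a filter, 0 on replicates 2 and 3 only, and 0 to 1 with 1 sample left out. Members whose groups did not overlap were 2 on replicates 2 and 3 only and 1 to 2 with 1 sample left out. The second was *Aif1* without control replicate 3, and *Tyrobp* without mutant replicate 1 or on replicates 2 and 3 only. With fewer samples, groups more often fail to overlap whether or not a gene differs. The share over all genes is not given for these smaller groups, so nothing is read from these counts. The median log2 difference of the members ranged from -0.05 to 0.09 with 1 sample left out, and that of their summed FPKM from -0.08 to 0.08. Genes with an unadjusted p under 0.05 over the whole table were 167 with the FPKM filter of 5, 663 without a filter, 844 with the replicate block, 1382 on replicates 2 and 3 only and 139 to 985 with 1 sample left out. Genes with an adjusted p under 0.05 were 0 to 6 with 1 sample left out (2 without control replicate 1, 6 without mutant replicate 3) and 0 under the other alternatives. The filters change the number of genes tested; for the other settings the cause was not tested. With the replicate block *Cd68* was again the 1 member with an unadjusted p under 0.05. Scaling factors lay between 0.980 and 1.02, and scaling shifted the median of all genes by less than 0.1 on the log2 scale. The paper gives a range of read pairs per sample but no read counts per gene, and counting error at low FPKM was not estimated.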

Other observations

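Other blood cells were also represented. A list of 14 monocyte, neutrophil and inflammatory genes had 6 genes tested and 8 under 1 FPKM in every sample. Its summed FPKM was 19.7 to 28.5 in controls and 21.9 to 36.7 in mutants, and the median log2 difference was 0.24. In limma 0 of the 6 had an unadjusted p under 0.05, or 2 with the replicate block. Over all genes tested the share was 2.09%, or 6.15% with the block. The counts of this list and those below were not tested against these shares. Some neutrophil genes, named after their values were seen, reached the level of the macrophage genes. Others of the list did not, with means over all samples of 0.529 FPKM for *Mpo*, 0.0323 FPKM for *Ly6g* and 0.0239 FPKM for *Elane*. The granule gene *S100a8* was at 3.80, 8.45 and 6.20 FPKM in control replicates 1, 2 and 3 and at 5.77, 10.5 and 12.3 FPKM in mutant replicates 1, 2 and 3. Its values were higher in the mutant of every pair and the groups overlapped (log2 difference 0.56, unadjusted p = 0.123 in limma, or 0.00533 with the replicate block, adjusted p = 0.797). Over all samples *S100a9* had a mean of 7.52 FPKM and *Prtn3* of 5.47 FPKM. Of 11 mast cell, megakaryocyte and lymphoid genes, 5 were tested and 6 stayed under 1 FPKM, with sums of 8.95 to 12.6 in controls and 9.46 to 13.7 in mutants and 0 with an unadjusted p under 0.05. All 11 erythroid genes were tested and had log2 differences above 0, from 0.06 to 0.52. They summed to 5477 to 10780 FPKM in controls and 7407 to 10868 FPKM in mutants, and 0 had an unadjusted p under 0.05, or 2 with the replicate block.

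Skeletal muscle genes were tested for 7 of 8, all with log2 differences below 0 (-0.58 to -0.33). Of these, 0 had an unadjusted p under 0.05 without the replicate block and 6 with it, against 2.09% and 6.15% of all genes tested. Epithelial, forebrain progenitor and choroid plexus lists were tested for 8 of 8, 8 of 8 and 4 of 6 genes, with median log2 differences of -0.15, 0.10 and 0.49 and 0 genes with an unadjusted p under 0.05. With the replicate block this was 2, 0 and 0 genes, against the same 6.15%. The sums of each of these 4 lists overlapped between the groups.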
